A study of Mus musculus with 18 samples.

Results

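The microRNAs described here are miR-103, miR-107 and miR-191, which are often used to normalize quantitative PCR of small RNA. They were taken as every feature named for one of these 3, hairpin or mature arm, in all 18 samples. This gave 11 of the 2134 features listed, 4 of the 855 hairpins and 7 of the 1279 mature miRNAs. The hairpins were mmu-mir-103-1, mmu-mir-103-2, mmu-mir-107 and mmu-mir-191, and the mature arms were miR-103-1-5p, miR-103-2-5p, mmu-miR-103-3p, miR-107-3p, miR-107-5p, miR-191-3p and mmu-miR-191-5p. Their means ran from 1.86 CPM (read counts on a common scale of library size) for mmu-mir-103-1 through 6395 CPM for mmu-miR-103-3p to 65030 CPM for mmu-miR-191-5p, and the mouse prefix is left off from here on. In quantitative PCR of the same treatments, miR-34a-5p and miR-449a-5p were normalized to the mean of miR-103-3p and miR-191-5p, so the question asked of the sequencing data was how level these features were across the treatments.

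Small RNA was sequenced from BV-2 cells, an immortalized line of mouse microglia, in 6 groups of 3 samples. The groups were control (no LPS or cannabinoid named in the labels), lipopolysaccharide (LPS) at 100 ng/ml for 4 h, cannabidiol (CBD) at 10 μM for 6 h, Δ9-tetrahydrocannabinol (THC) at 10 μM for 6 h, and each cannabinoid given before and during LPS (CBD+LPS and THC+LPS). All groups are the same line, and no genotype differs between them. The labels number the samples 22 to 39, 1 number per sample, and do not say whether samples came from separate cultures, so the p-values measure only the spread between these samples.

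A miRNA is cut from a hairpin precursor as a short mature strand from either arm, named 5p or 3p, and recognizes its targets mainly through the seed near its 5′ end. miR-103 and miR-107 form a family whose hairpins lie in the pantothenate kinase genes, which encode the enzymes that open coenzyme A synthesis, and the family is known to repress Dicer1, the enzyme that cuts precursors. miR-191 is a broadly expressed miRNA made from a cluster with miR-425. A reference for PCR has to be abundant and has to stay level under every treatment compared.

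The mature sequences are shown because the arms of miR-103 and miR-107 are nearly identical while those of miR-191 resemble neither. Sequences are from RefSeq for GRCm38.p6, 5′ to 3′, with the seed (bases 2 to 8) in capitals.
miR-103-3p: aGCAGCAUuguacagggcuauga
miR-107-3p: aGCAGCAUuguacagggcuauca
miR-103-1-5p: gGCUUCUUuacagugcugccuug
miR-103-2-5p: aGCUUCUUuacagugcugccuug
miR-107-5p: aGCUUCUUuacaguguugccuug
miR-191-5p: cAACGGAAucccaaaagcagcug
miR-191-3p: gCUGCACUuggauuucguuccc

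miR-103-3p and miR-107-3p share the seed GCAGCAU with each other and with no other mature entry of the table, and differ in 1 of 23 bases, G22C from miR-103-3p to miR-107-3p, counted from the 5′ end. The 3 arms on the other side share the seed GCUUCUU. miR-103-2-5p differs from miR-103-1-5p by A1G and from miR-107-5p by C16U. The seeds AACGGAA of miR-191-5p and CUGCACU of miR-191-3p were found in no other entry. Bases 1 to 7 of miR-103-3p, AGCAGCA, are the seed of 10 other mature miRNAs, among them miR-15a-5p, miR-15b-5p, miR-16-5p, miR-195a-5p, miR-322-5p and miR-497a-5p. Reads could have up to 10 mappings in the alignment the study describes, and how such reads were shared among entries is not given in the sources used here, so the split between miR-103-3p and miR-107-3p, and among the 3 5p arms, is uncertain.

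On GRCm38, the build of the reference annotation, Mir103-1 lies at chr11:35782396-35782481 on the plus strand in an intron of Pank3. Mir103-2 lies at chr2:131288052-131288137 on the plus strand in an intron of Pank2. Both encode the identical miR-103-3p, so its reads cannot be assigned to a locus. Mir107 lies at chr19:34820687-34820773 on the minus strand in an intron of Pank1. Mir191 lies at chr9:108568319-108568392 on the plus strand, inside an exon of the long intergenic non-coding RNA 4833445I07Rik, and is separated by 384 bases from Mir425. The annotation also places an antisense miRNA gene, Gm24083, over Mir191. The hairpin of mir-191 is shown with both mature arms in capitals, because it has an entry of its own beside theirs.
mir-191: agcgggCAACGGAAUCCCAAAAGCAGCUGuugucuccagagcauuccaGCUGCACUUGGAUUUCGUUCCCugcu

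The CPM unit used throughout divides a feature's reads by the library total multiplied with edgeR's TMM factor. The libraries held 442718 to 1057147 reads, and 3 reads, taken as the floor of counting, corresponded to 2.98 to 6.38 CPM. Samples 22 to 27, 1 of each group, stood apart from samples 28 to 39. Over the 185 mature miRNAs with a mean of at least 100 CPM, the median SD of log2(CPM + 1) was 0.32 over all 18 samples and 0.21 over samples 28 to 39. In samples 22 to 27 the mean log2 level, on this TMM scale, was lower by 0.47 for miR-103-3p, 0.28 for miR-107-3p and 0.28 for miR-191-5p. Results are therefore given with and without those samples. As a plain share of reads the sets lay closer. miR-191-5p took 5.26% to 7.71% in samples 22 to 27 and 5.51% to 7.76% in samples 28 to 39. For miR-107-3p the shares were 0.107% to 0.122% and 0.104% to 0.129%, and for miR-103-3p 0.522% to 0.627% and 0.616% to 0.733%. The sum of mir-6236, mir-6243 and mir-6240 took 0.151% to 4.55% of a library, and was a covariate in 1 alternative fit.

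miR-191-5p was the third most abundant mature miRNA and took 6.44% of all reads. By sample its share ran from 5.26% (Wilson 95% interval 5.21% to 5.31%) in THC sample 25 to 7.76% (7.70% to 7.82%) in control sample 34, intervals that cover counting error only. miR-103-3p ranked 25 and miR-107-3p ranked 75 among mature miRNAs, with means over the 18 samples of 6395 and 1148 CPM beside 65030 CPM for miR-191-5p. The ranges of these 3 over the samples did not overlap, and all mature arms compared are 22 or 23 bases long, so the order needs no correction for length.

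The 8 other members were far lower. mir-191 had a mean of 298 CPM and miR-191-3p, the arm of miR-191 that is mostly discarded, 60.3 CPM. mir-103-2 had 24.7 CPM and miR-103-2-5p 16.9 CPM. The means of miR-103-1-5p, miR-107-5p, mir-107 and mir-103-1 were 4.89, 4.34, 3.85 and 1.86 CPM. These last 4 had at most 8 reads in any sample and overlapping ranges, so their order is not resolved at this depth, and mir-103-1 had no read in 4 samples. All 11 members had at least 10 reads over the 18 samples and were tested.

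miR-103-3p, the family's main strand, measured 4917, 6274 and 6064 CPM in control samples 22, 28 and 34. In LPS samples 23, 29 and 35 it measured 5449, 6957 and 7144 CPM. The first sample of each of these groups was its lowest, and the groups overlapped. The CBD samples 24, 30 and 36 were at 5477, 7025 and 7644 CPM, and the THC samples 25, 31 and 37 at 4239, 6588 and 7293 CPM. For CBD+LPS the values were 4565, 7356 and 7910 CPM in samples 26, 32 and 38. For THC+LPS they were 6013, 6992 and 7209 CPM in samples 27, 33 and 39. In all 6 groups the sample numbered 22 to 27 was the lowest, and no treated group lay clear of control.

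In the limma fit on log2(CPM + 1), miR-103-3p differed from control by between 0.04 (THC) and 0.23 (THC+LPS) on the log2 scale, with SE 0.23. The 95% intervals of these 5 differences reached from -0.45 at the lowest to 0.72 at the highest, which includes differences of over 1.5-fold. With a term for 3 consecutive sets of sample numbers, added after the data were seen, the SE was 0.12. The same 5 intervals then reached from -0.22 (THC) to 0.49 (THC+LPS), all within 1.5-fold. Without that term and pooled over cannabinoids, 9 LPS against 9 other samples, the difference was 0.11 (95% interval -0.17 to 0.38). Samples 28 to 39 alone gave 0.10 (-0.05 to 0.24) for the same comparison. There CBD+LPS against control was 0.31 (0.09 to 0.52, limma adjusted p = 0.146) and CBD against control 0.25 (0.03 to 0.47, limma adjusted p = 0.122), both under 1.5-fold.

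miR-107-3p, which differs from it by 1 base, was at 1010, 1084 and 1053 CPM in the control samples and at 1101, 1160 and 1128 CPM with LPS. All 3 LPS samples lay above all 3 controls, by a narrow margin. With CBD it was at 1086, 1316 and 1313 CPM, again all above the controls, and with THC at 876, 1158 and 1327 CPM. CBD+LPS gave 939, 1235 and 1362 CPM and THC+LPS 1025, 1217 and 1266 CPM. These last 3 groups overlapped with control. Against control the largest fitted difference was 0.23 for CBD (95% interval -0.15 to 0.62), and the pooled LPS difference was 0.03 (-0.18 to 0.25). In samples 28 to 39 alone CBD differed from control by 0.30 (0.05 to 0.54, limma adjusted p = 0.104) and CBD+LPS by 0.28 (0.03 to 0.52, limma adjusted p = 0.220). Pooled over LPS, the CBD difference there was 0.24 (0.04 to 0.44, limma adjusted p = 0.172). These 3 intervals lay above 0, all under 1.5-fold, and none passed the adjusted threshold of 0.1.

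miR-191-5p was at 54235, 56074 and 68747 CPM in the control samples and at 73205, 69657 and 68363 CPM with LPS. The lowest LPS sample lay just under the highest control. It was at 50946, 72965 and 79263 CPM with CBD and at 40923, 55879 and 58954 CPM with THC. These groups overlapped with control and with each other, and the THC group held the lowest value of all 18. CBD+LPS gave 51201, 77057 and 72878 CPM, and THC+LPS gave 73922, 73937 and 72334 CPM. All 3 THC+LPS samples lay above all controls, and they were the most alike of any group.

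**Figure D1:**
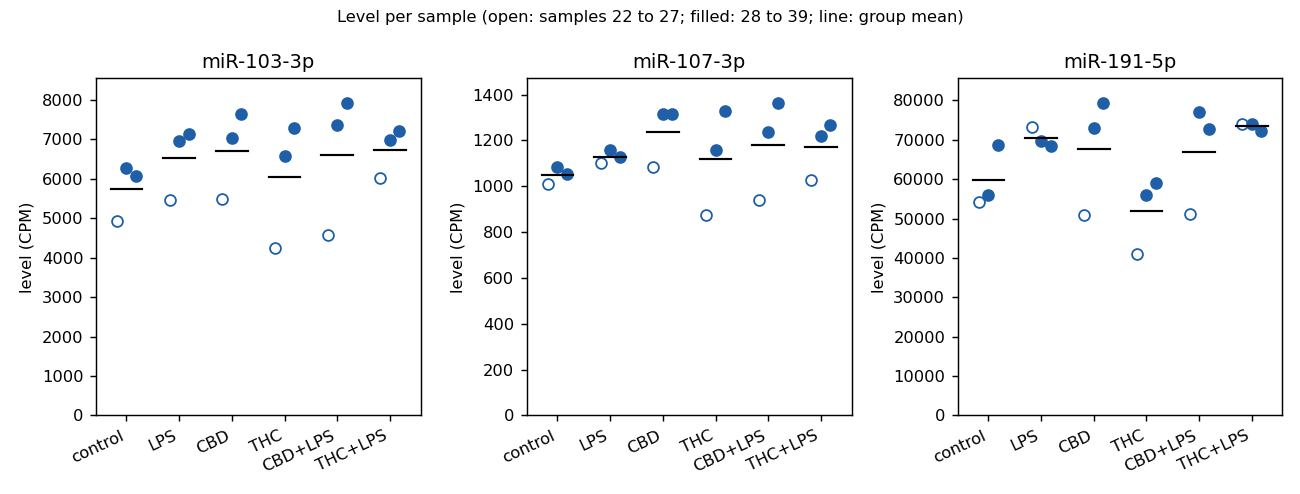
Level of miR-103-3p, miR-107-3p and miR-191-5p in each sample, in CPM on axes from 0, by treatment group. Each point is 1 sample, open for samples 22 to 27 and filled for 28 to 39, and the line is the mean of 3. The open point is the lowest of all 6 groups for miR-103-3p, and for miR-191-5p the THC+LPS points (72334 to 73937 CPM) sit above all controls (54235 to 68747 CPM).

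Against control, miR-191-5p differed by 0.25 with LPS (95% interval -0.16 to 0.66), 0.17 with CBD (-0.24 to 0.57), -0.21 with THC (-0.62 to 0.20), 0.15 with CBD+LPS (-0.26 to 0.56) and 0.31 with THC+LPS (-0.10 to 0.72). The THC estimate was the only one below 0 among these. Pooled over cannabinoids, the LPS difference was 0.25 (0.0025 to 0.50), a fold of 1.19, with a limma adjusted p = 0.708 over the 1363 features tested. The other arm, miR-191-3p, differed by 0.42 (0.11 to 0.74) in the same comparison, a fold of 1.34, with a limma adjusted p = 0.367. Neither passed the adjusted threshold of 0.1. The median of all 1363 features was 0.03, and scaling to library size alone moved it to -0.08. The pooled LPS difference of miR-191-5p ran from 0.12 to 0.32 and that of miR-191-3p from 0.29 to 0.48 over all alternatives.

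miR-191-3p measured 55.3, 41.0 and 55.9 CPM in the controls and 83.7, 59.6 and 74.2 CPM with LPS, without overlap. It was at 53.1, 50.7 and 39.5 CPM with CBD and at 58.7, 36.6 and 74.3 CPM with THC, overlapping with control. CBD+LPS gave 54.1, 61.1 and 57.6 CPM and THC+LPS 83.5, 74.5 and 72.2 CPM, the latter all above the controls. These are 24 to 72 reads a sample, for which counting alone gives an SD of 0.21 on the log2 scale at the median of 47.5 reads. Its THC+LPS difference from control was 0.60 (95% interval 0.02 to 1.17, limma adjusted p = 0.929).

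The hairpin mir-191 has an entry of its own beside the arms. Its sequence contains both arms, and whether reads of the arms were also counted in it is not given in the sources used here. It was at 345, 291 and 327 CPM in the controls and at 306, 266 and 289 CPM with LPS, and the groups overlapped. Its pooled LPS difference was -0.08 (95% interval -0.32 to 0.15). CBD+LPS measured 244, 287 and 278 CPM, all below the controls, with a fitted difference of -0.25 (-0.64 to 0.14). The mature 5p arm exceeded the hairpin entry 157- to 269-fold and the 3p arm 698- to 2006-fold over the 18 samples. Whether the hairpin's difference departs from those of the arms was not tested.

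The remaining members rested on few reads. mir-103-2 had 7 to 28 reads a sample and a pooled LPS difference of 0.42 (-0.06 to 0.89). miR-103-2-5p had 2 to 26 reads a sample, 16, 17 and 26 of them with LPS beside 7, 10 and 12 in the controls. In CPM its LPS samples lay above all controls and its CBD+LPS samples, at 12, 10 and 8 reads, below both. mir-107 had 3, 8 and 6 reads with THC against 1, 0 and 3 in control (limma adjusted p = 0.977). mir-103-1, miR-103-1-5p, mir-107 and miR-107-5p had at most 8 reads in any sample, so differences of a few reads in these 4 were not resolved at this depth.

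No member passed a test in the 18 samples. When limma compared all 6 groups at once (F test), 0 of 11 members were called at an adjusted p up to 0.1, where 1.76% of all features were. At an unadjusted p up to 0.05 there were 0 of 11, where 114 of all 1363 features were. Pairs of groups were called at an unadjusted p up to 0.005 and a change of 1.5-fold or more. By this criterion 0 of 99 tests (11 members in 9 comparisons) were called in limma, where 1.19% of all tests were. The background was 1.54% for LPS, 1.61% for CBD, 0.440% for THC, 1.39% for CBD+LPS and 1.83% for THC+LPS against control. It was 0.220% for CBD+LPS and 0.220% for THC+LPS against LPS, 3.30% for CBD against THC and 0.147% for CBD+LPS against THC+LPS. Below an unadjusted p of 0.05 there were 2 of 99 tests of members, where 5.99% of all tests were. edgeR's quasi-likelihood test and DESeq2 called none in either family, each with 0 of 99 below an unadjusted p of 0.05. None of these shares lies above its background. With 3 samples a group, the intervals above give what size of change remains possible under the fit each came from.

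By the pooled effects 0 of 33 tests of members were called in limma, where 1.54% of all features were called for LPS, 0.293% for CBD and 0% for THC. Below an unadjusted p of 0.05 there were 2 of 33 in limma, both LPS and both arms of miR-191, where 5.60% of all tests were. edgeR gave 2 of 33 at that level (5.38% of all tests) and DESeq2 3 of 33 (4.53%), and neither called a member. Of the 22 tests of whether a cannabinoid effect differed between resting and LPS-treated cells, none was called in limma, edgeR or DESeq2, where 0% of all features were in limma. None of the 22 reached an unadjusted p of 0.05, where in limma 65 of 1363 features did for CBD and 51 for THC.

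**Figure D2:**
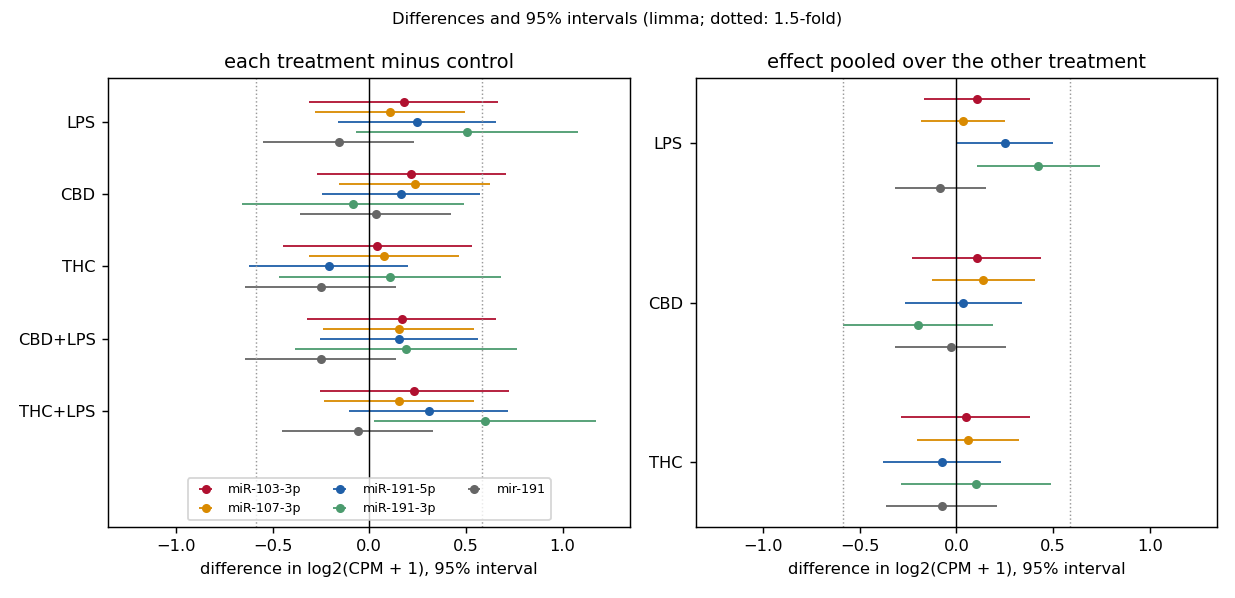
Difference in log2(CPM + 1) with its 95% interval (limma) for the 5 most abundant members, at left each treatment minus control (3 samples against 3) and at right the effect of LPS, CBD or THC pooled over the other treatment. The dotted lines mark 1.5-fold. At right, the LPS intervals of miR-191-5p (0.0025 to 0.50) and miR-191-3p (0.11 to 0.74) lie above 0, while that of miR-103-3p spans it.

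Members were also counted whose samples did not overlap between 2 groups. Against control, LPS had 4 of 11 members above (miR-103-1-5p, miR-103-2-5p, miR-107-3p and miR-191-3p), where 9.39% of all features did not overlap in either direction. CBD had 1 above (miR-107-3p), where the share was 10.2%, and THC had none, where it was 6.82%. CBD+LPS had 2 below (miR-103-2-5p and mir-191) at a background of 9.24%, and THC+LPS had 3 above (miR-103-1-5p, miR-191-3p and miR-191-5p) at 7.70%. CBD+LPS lay below LPS for 2 members (miR-103-1-5p and miR-103-2-5p), where 9.32% did not overlap, and THC+LPS against LPS had none, where 7.19% did not. CBD against THC had none at 20.6%, and CBD+LPS lay below THC+LPS for 2 (miR-103-2-5p and miR-191-3p) at 6.53%. Members share control samples in these comparisons, and several share a locus or near-identical reads, so the counts are not independent.

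The sample numbers fall into 3 consecutive sets (22 to 27, 28 to 33 and 34 to 39), each with 1 sample of every group. With a term for these sets, added after the data were seen, 0 of 11 members were called in the limma F test (2.86% of all features). In the pooled LPS comparison 0 of 11 were called (2.42%). Below an unadjusted p of 0.05 lay 1 of 11 in the F test, where 154 of all 1363 features did. For pooled LPS 3 of 11 did, mir-103-2 and both arms of miR-191, where 124 of 1363 did. The differences were unchanged by construction. The pooled LPS intervals narrowed for miR-103-3p, miR-107-3p, mir-103-2, mir-191 and both arms of miR-191. They widened slightly for mir-103-1, miR-103-1-5p and miR-107-5p. The pooled LPS difference was then 0.11 (95% interval -0.05 to 0.26) for miR-103-3p, 0.25 (0.04 to 0.46, limma adjusted p = 0.383) for miR-191-5p and 0.42 (0.14 to 0.71, limma adjusted p = 0.188) for miR-191-3p. For mir-103-2, an entry of few reads, it was 0.42 (0.0097 to 0.82, limma adjusted p = 0.515).

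With samples 22 to 27 left out, miR-191-5p was called in the F test (limma adjusted p = 0.0716), 1 of 11 members, where 18.2% of all features were. Its 2 CBD samples, at 72965 and 79263 CPM, lay above the 2 THC samples, at 55879 and 58954 CPM. The difference was 0.41 (95% interval 0.17 to 0.64, limma adjusted p = 0.020), a fold of 1.33, under the 1.5-fold of the criterion. Over all 18 samples it was 0.38 (-0.03 to 0.79) in the fit without a term for the sets. With that term the unadjusted limma p of CBD against THC lay below 0.05, and the comparison was not called. CBD against control was 0.29 (0.06 to 0.53, limma adjusted p = 0.0967). In these 12 samples miR-103-3p and miR-107-3p had limma adjusted p of 0.327 and 0.352 in the F test. The LPS difference of miR-191-5p became 0.16 (-0.01 to 0.33). No member was called in the 9 comparisons (0 of 99 in limma, 14 of 99 below an unadjusted p of 0.05), where 3.67% of all tests met the criterion and 13.6% lay below 0.05. None was called in the pooled effects (0 of 33), where 2.35% of features were for LPS, 6.53% for CBD and 0% for THC. Of these 33, 4 lay below an unadjusted p of 0.05, where 11.7% of all tests did. At that level the members' shares are close to the background in both families.

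The ratio of miR-191-5p to miR-103-3p does not depend on library scaling, and it tells whether the PCR references moved together. The ratio ran from 8.08-fold in THC sample 37 to 13.4-fold in LPS sample 23, with a median of 10.2-fold. On the log2 scale the group means were 3.38 ± 0.19 in control, 3.44 ± 0.27 with LPS, 3.32 ± 0.09 with CBD, 3.12 ± 0.13 with THC, 3.36 ± 0.14 with CBD+LPS and 3.45 ± 0.15 with THC+LPS (SD, n = 3). The THC mean was the lowest of the 6, and all groups overlapped with control.

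In a 2-sided exact permutation test with labels exchanged within strata of the other treatment, LPS samples exceeded the others by 0.14 (p = 0.105, adjusted p = 0.316 over 3 tests, 9 samples against 9). By the same exact test CBD differed from no cannabinoid by -0.07 (p = 0.535) and THC by -0.12 (p = 0.295, adjusted p = 0.443), 6 samples against 6. With labels exchanged within the 3 sets of numbers as well, the exact permutation p was 0.0859 for LPS (adjusted p = 0.258), 0.406 for CBD and 0.219 for THC. In samples 28 to 39 the LPS difference was 0.07 (exact permutation p = 0.472). With 4 samples against 4 there, the test of each cannabinoid cannot go below 0.0556. The CBD difference there was 0.025, of opposite sign, with exact permutation p = 0.778. None of these differences exceeded the spread between samples, and a p that misses the threshold does not show that the references kept one ratio.

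The ratio of miR-103-3p to miR-107-3p was tighter and split by sample number. It ran from 4.84- to 6.33-fold. Its median was 4.91-fold in samples 22 to 27 and 5.77-fold in samples 28 to 39. Among the 6 samples of the first set, 5 lay below all 12 of the second, and THC+LPS sample 27, at 5.86-fold, did not.

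**Figure D3:**
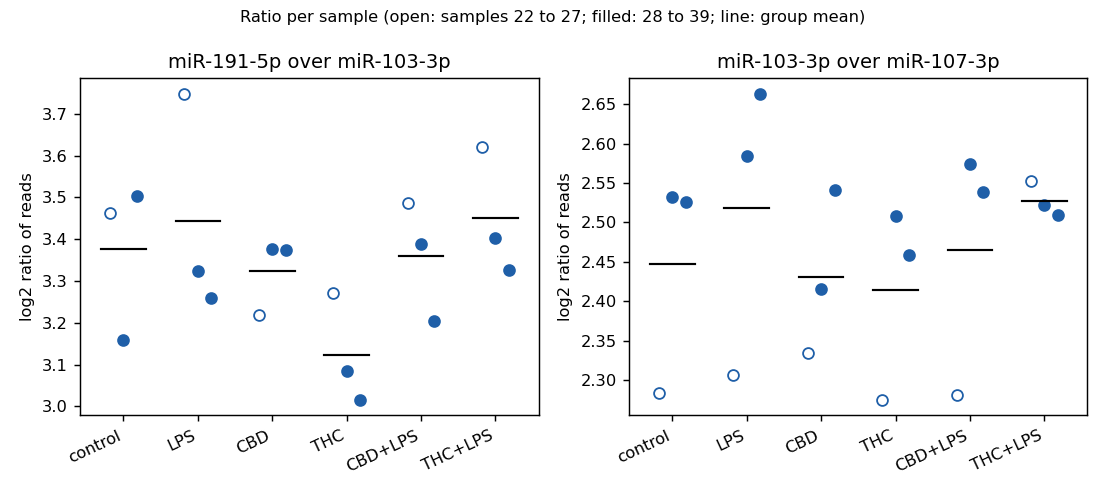
Log2 ratio of reads of miR-191-5p to miR-103-3p (left) and of miR-103-3p to miR-107-3p (right) in each sample by group, open for samples 22 to 27 and filled for 28 to 39, with the group mean as a line. The vertical axes do not start at 0. At left the THC mean of 3.12 is the lowest, and at right the open points lie at the bottom in every group but THC+LPS.

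As a description of stability, the SD of log2(CPM + 1) over the 18 samples was 0.26 for miR-103-3p, 0.27 for miR-191-5p and 0.18 for miR-107-3p. Counting error at their median reads was 0.02, 0.0065 and 0.049, each well below the SD observed. Among the 185 mature miRNAs with a mean of at least 100 CPM, ranked from the smallest SD, miR-107-3p was 18, miR-103-3p 65 and miR-191-5p 68. The median of the 185 was 0.32. The 3 smallest were miR-27a-3p at 0.11, miR-186-5p at 0.13 and let-7i-5p at 0.13. From lowest to highest sample miR-103-3p spanned 1.87-fold, miR-191-5p 1.94-fold and miR-107-3p 1.55-fold, beside 1.32-fold for miR-27a-3p.

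The spread was also split into that between and that within groups, with no test. The SD of the 6 group means was 0.10 for miR-103-3p, 0.08 for miR-107-3p and 0.19 for miR-191-5p, ranks 30, 16 and 123 of 185, where the median was 0.15. The pooled SD within groups was 0.30, 0.19 and 0.24 in the same order, where the median was 0.31. A mean of 3 samples carries part of the spread within its group, so the SD of group means is not variation between treatments alone. None of these miRNAs passed the F test over the 18 samples. In samples 28 to 39 miR-103-3p fell to an SD of 0.11 and rank 9, miR-107-3p was at 0.12 and rank 20, and miR-191-5p at 0.17 and rank 61.

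The ranks depended on scaling. With library size alone they were 15 for miR-103-3p, 3 for miR-107-3p and 34 for miR-191-5p, and with DESeq2 size factors 51, 7 and 58. Under each scaling run miR-107-3p had the smallest SD of the 3 and miR-191-5p the largest.

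**Figure D4:**
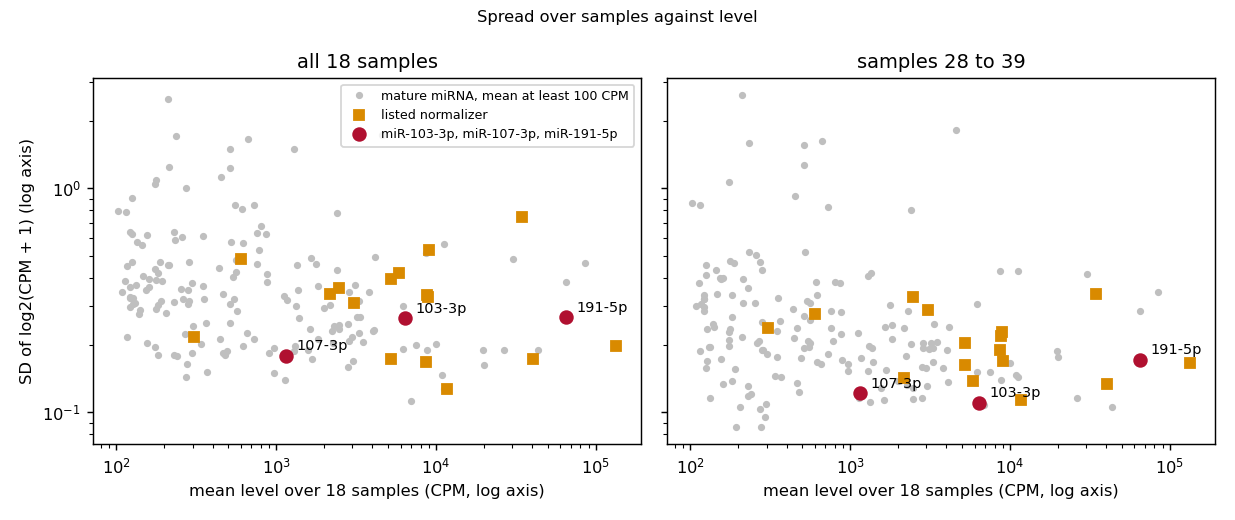
SD of log2(CPM + 1) over samples against the mean level in CPM, both on log axes, for 185 mature miRNAs (grey), listed normalizers (orange squares) and miR-103-3p, miR-107-3p and miR-191-5p (red), over all 18 samples and over samples 28 to 39. The red point of miR-103-3p moves from 0.26 at left to 0.11 at right, and that of miR-191-5p from 0.27 to 0.17.

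Pairwise spread, which needs no scaling, gave another order. For 19 miRNAs, these 3 with 16 others often used as references, the SD of the log2 ratio to each of the other 18 was averaged, the M value of the geNorm method. miR-107-3p had the smallest mean at 0.29, then miR-103-3p at 0.30 and miR-16-5p at 0.31. miR-191-5p was at rank 5 with 0.33, and miR-181a-5p was last at 0.66. In samples 28 to 39 miR-103-3p had rank 1 at 0.18, miR-107-3p rank 2 at 0.18 and miR-191-5p rank 10 at 0.23. Of 171 pairs the tightest was miR-103-3p with miR-425-5p at 0.12. miR-103-3p with miR-107-3p had rank 3 and miR-103-3p with miR-191-5p, the pair averaged for PCR, had rank 14 at 0.18. miR-103-3p and miR-107-3p are near-identical sequences and each counts toward the other's mean.

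**Figure D5:**
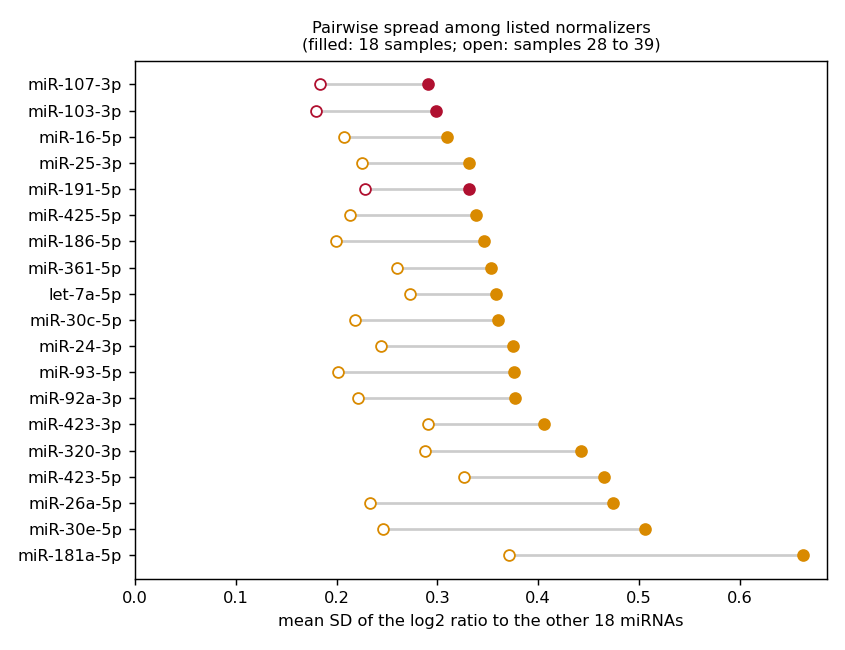
Mean SD of the log2 ratio to the other 18 miRNAs for 19 candidate references, on an axis from 0, filled for 18 samples and open for samples 28 to 39, with miR-103-3p, miR-107-3p and miR-191-5p in red. Filled points run from 0.29 for miR-107-3p to 0.66 for miR-181a-5p, with miR-191-5p at 0.33.

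The 16 other references gave a frame for the calls. None of the 16 was called in the limma F test over 18 samples, with a lowest adjusted p of 0.528. In samples 28 to 39, 9 of the 16 were called beside 1 of 11 members, where 18.2% of all features were. These counts are not alike, because the 16 are mature arms with means from 308 CPM up. Most of the 11 members are hairpins or arms of low level. Of the abundant member arms miR-191-5p was called, and miR-103-3p and miR-107-3p were not. miR-423-5p, let-7a-5p and miR-24-3p were among the 9, and miR-16-5p, miR-186-5p and miR-93-5p were not. The median pooled LPS difference of the 16 was 0.02, where the median of all features was 0.03. The difference was 0.11 for miR-103-3p, 0.03 for miR-107-3p and 0.25 for miR-191-5p. Over all 11 members, which include rows of few reads and rows that share a locus, the differences ran from -0.72 to 0.42.

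Of the 6 miRNAs of the miR-15/16 group whose seed overlaps that of miR-103-3p by an offset of 1 base, none was called in the F test over 18 samples (lowest limma adjusted p = 0.628, 1.76% of all features called). Their pooled LPS differences ran from -0.13 to 0.10. In samples 28 to 39, 1 of the 6 was called, miR-15b-5p (limma adjusted p = 0.0849), where 18.2% of all features were. The pooled LPS differences there ran from -0.23 to 0.11. The cluster partner of miR-191 had no entry called under LPS. The pooled LPS difference was 0.18 (95% interval -0.15 to 0.51) for miR-425-5p, 0.33 (-0.07 to 0.73) for miR-425-3p and 0.27 (-0.08 to 0.63) for mir-425.

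By Pearson's r of log2(CPM + 1) over the 18 samples, the 3 mature miRNAs most like miR-103-3p among 182 were miR-93-5p at 0.96, miR-425-5p at 0.95 and miR-1839-5p at 0.95. Over samples 28 to 39 these were 0.78, 0.72 and 0.82. The nearest to miR-191-5p were miR-145a-3p at 0.76, miR-199a-3p at 0.73 and miR-674-5p at 0.73, which fell to 0.61, 0.55 and 0.40. The samples share their libraries and their scaling, and the first set of 6 moves these values, so the figures are descriptive.

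Averaged as for PCR, miR-103-3p and miR-191-5p together ranged 1.87-fold over the 18 samples, and 1.31-fold in samples 28 to 39. Relative to control the mean of the pair was 0.21 higher with LPS, 0.19 with CBD, 0.16 with CBD+LPS and 0.27 with THC+LPS on the log2 scale, and -0.09 with THC. The highest of these, THC+LPS, is a fold of 1.21. The lowest sample was THC 25, at 0.656 of the mean over all samples, and the highest CBD 36, at 1.23.

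Setting this mean equal in every sample lowers the fitted values of groups where it was high. The median pooled LPS difference of all 1363 features went from 0.03 to -0.12 under that scaling, and changes are read against that shift. miR-155-5p, a miRNA induced by LPS in myeloid cells, was 3.33 above control with LPS as deposited and 3.12 above it relative to the references. miR-146a-5p, which acts in feedback on the same signalling, went from 0.91 to 0.69. By the study's methods, its PCR of miR-155-5p and miR-146a-5p was normalized to a small nuclear RNA, not to this pair.

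miR-34a-5p, a miRNA induced by p53, measured 65.4 ± 11.8 CPM in control and 66.5 ± 24.1 CPM with CBD (SD, n = 3). Its CBD difference from control was -0.02 (95% interval -0.83 to 0.79) as deposited and -0.21 (-0.85 to 0.44) relative to the references. The SE fell from 0.38 to 0.31. These values are for the mature arm alone. The study lists the hairpin entry mir-34a as raised by CBD in its sequencing, and reports a rise of miR-34a by PCR. The hairpin entry is not reported here, so the values above do not describe every entry of this gene. Whether scaling to the references changes the result for the hairpin was not tested. miR-449a-5p had 32 reads over the 18 samples, 0 in every control and 2 to 6 in the CBD samples. Its fitted CBD difference was 2.68 as deposited (limma adjusted p = 0.159) and 2.62 relative to the references (limma adjusted p = 0.318). Against a control of 0 reads these fitted values depend on the pseudocount and bound no fold.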

How the data were processed

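Small RNA libraries of 18 BV-2 samples were grouped by their labels, 3 per group. By the study's methods, the authors sequenced a single pool of libraries, aligned reads to mouse miRBase by BWA, set to a maximum of 10 mappings for a read, and counted and compared known miRNAs with edgeR. The values deposited by the authors are CPM scaled by TMM, with no filter on low values. Where deposited columns summed to more than a plain CPM total, they were recorded as a score, though they are the same measure. Every value was a whole multiple of 1 read (100% within a tolerance of 0.001 reads).

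Features with at least 10 reads (1363) were tested as log2(CPM + 1) with limma 3.58.1 in R 4.3.3, with a mean-variance trend and Benjamini-Hochberg adjustment over all of them. edgeR 4.0.16 (quasi-likelihood) and DESeq2 1.42.0 on the recovered reads were alternatives. The fits were tested on simulated data. Spread and ratios were computed in Python 3.11.15. The named miRNAs were all members, the miR-425 cluster partner, fixed lists of 16 other references and 6 offset-seed miRNAs, the 3 most alike by r, the 3 with the smallest SD and the miRNAs the study measured by PCR. Members and lists were chosen with earlier results of these data known. The PCR and mRNA data were not analysed here. Wilson intervals of read shares and the floor of 3 reads cover counting error only, since PCR reads are not independent molecules. Intervals of differences are limma's and rest on the spread between samples.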

Additional observations from a re-analysis of the deposited data

How the results depend on the processing

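Results were recomputed under 32 alternative settings, 18 of them leaving out 1 sample. The counts of called members stayed at 0 in the F test, the 2-group comparisons, the pooled effects and the interactions under every setting except samples 28 to 39 alone, where the F test called 1 (miR-191-5p). There the CBD difference of the ratio of miR-191-5p to miR-103-3p was 0.025 in place of -0.07. The cause was not tested. Leaving out 1 sample gave 0 to 0 calls in each family, ratio differences of 0.10 to 0.17 for LPS, -0.12 to -0.00021 for CBD and -0.19 to -0.06 for THC, and SDs over samples of 0.23 to 0.27 for miR-103-3p, 0.16 to 0.18 for miR-107-3p and 0.22 to 0.27 for miR-191-5p. Of 4872 alternative values of single members, 193 changed sign, none of them with an interval that left out 0 as reported. Each sample number was used once and the labels pair no samples, so no pairing was taken from the labels. In its place a term for samples 22 to 27, and one for the 3 sets of consecutive numbers that was chosen after seeing the data, were fitted, and both called 0 members. Depth limits the 6 members under 30 reads a sample.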
